A study of Homo sapiens with 2 samples.

Results

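The genes described here are 10 genes of the integrated stress response: ATF4, DDIT3, ATF3, TRIB3, CHAC1, DDIT4, SESN2, ASNS, PPP1R15A and CEBPB. They were taken as a list of symbols and matched to the probe annotation of the array, where all 10 had at least 1 probe out of 20046 genes with a named probe. The list was chosen by the signals of these same arrays, with some of its genes already known to be lower, so its difference between the cells is a description and not a test. The cells were SK-ES1, a line from an Ewing sarcoma with the EWSR1-FLI1 fusion gene, and mRNA was measured on Illumina expression BeadChips. Total RNA came from radiation-adapted SK-ES1 cells (1 array, named SK-4Gy by the submitters) and from wild type SK-ES1 cells (1 array, SK-WT). Both groups are the same line, and the labels state neither how the dose of 4 Gy was given, nor when RNA was taken after it, nor whether the adapted cells are a clone or a pool. With 1 array a group there is no spread between cultures, no test and no p-value for any difference, and every ratio below compares these 2 arrays.

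In the integrated stress response, kinases that sense amino acid lack, unfolded protein in the endoplasmic reticulum, haem lack or double-stranded RNA phosphorylate the initiation factor eIF2. General translation then slows, while the mRNA of the transcription factor ATF4 is translated more. ATF4 pairs with other basic leucine zipper (bZIP) factors and switches on genes of amino acid supply and of stress control, among them DDIT3, which encodes the factor CHOP, and feedback genes that restart translation or hold ATF4 back. Because ATF4 is set largely at translation, its mRNA level need not follow its protein, which an expression array does not measure.

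In radiation-adapted cells 6 of the 10 genes were at least 2-fold lower than in wild type cells: DDIT3, SESN2, ATF3, CHAC1, TRIB3 and ASNS. DDIT4 lay just short of that size. ATF4 itself, CEBPB and PPP1R15A differed by at most 1.21-fold in either direction at their brightest probe. None of the 10 was at least 2-fold higher. The median log2 ratio of the 10 genes, radiation-adapted minus wild type, was -1.32, beside -0.04 over all 10189 genes detected on at least 1 array. Over those genes 2.07% were at least 2-fold lower and 4.02% were higher by that size. All 10 members were detected on both arrays, and of the 9144 genes detected so, 1.37% were at least 2-fold lower. These shares stand beside the 6 of 10 as background, and nothing is read from the contrast that the choice of the list already used.

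**Figure D1:**
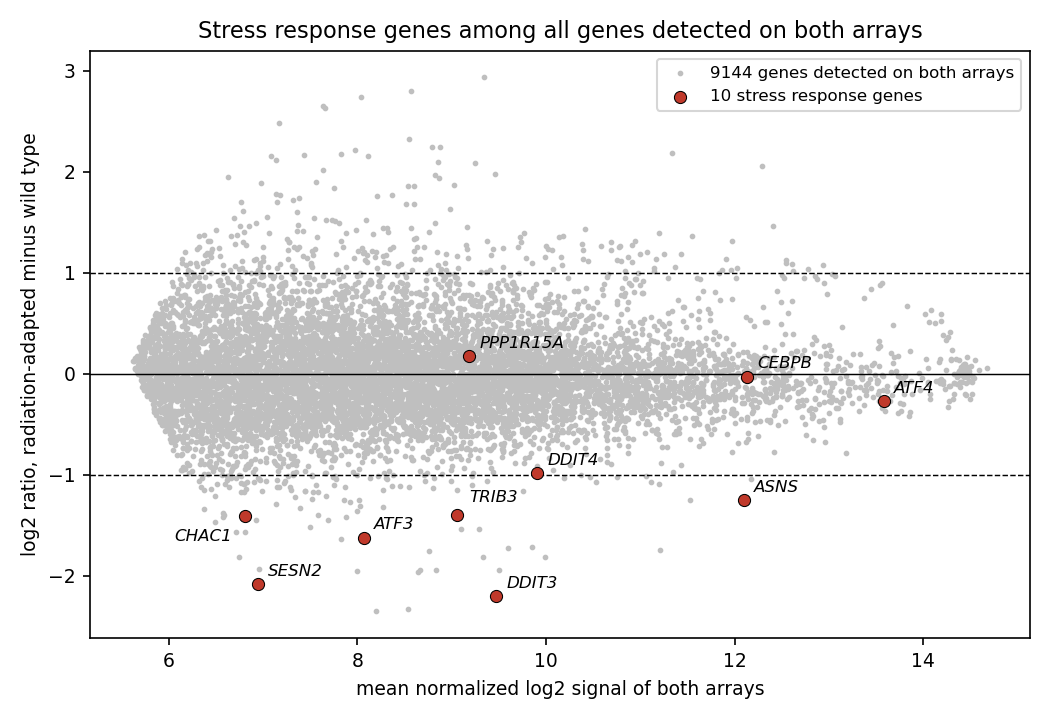
Each grey point is 1 of 9144 genes detected on both arrays, with the mean normalized log2 signal of both arrays on the x axis and the log2 ratio, radiation-adapted minus wild type, on the y axis; dashed lines mark 2-fold. The 10 stress response genes are in red: DDIT3 (-2.20) and SESN2 (-2.08) lie at the lower edge of all genes, and ATF4, CEBPB and PPP1R15A lie among the bulk.

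The starts of these genes were examined for the DNA motifs that ATF4 and its relatives are known to bind. The composite C/EBP-ATF element, bound by ATF4 with a C/EBP partner, was searched as TGATGNAA (TTNCATCA on the other strand), and the cyclic AMP response element (CRE), bound by ATF and CREB factors, as the palindrome TGACGTCA. No match of one overlapped a match of the other in the 10 genes. Sequences were the 250 bases before each start annotated by RefSeq on GRCh38.p14, and all 10 genes had at least 1 such start. Of the 10, ASNS, CHAC1 and ATF3 held the composite motif and PPP1R15A held the CRE. The other 6 held neither in this window, which says only that these letters are not there. Of all 35116 promoter windows of the same length, 3.14% held the composite motif and 1.65% the CRE. Counted by gene, as for the 10 members, the shares were 3.89% and 2.03% of 27305 genes. The 4 windows with a match are shown 5′ to 3′ on the strand of the gene, since they place the motif relative to the start in 3 genes that were at least 2-fold lower and in 1 that was not. Capitals mark the match.

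ASNS (chr7:97872409-97872658, minus strand): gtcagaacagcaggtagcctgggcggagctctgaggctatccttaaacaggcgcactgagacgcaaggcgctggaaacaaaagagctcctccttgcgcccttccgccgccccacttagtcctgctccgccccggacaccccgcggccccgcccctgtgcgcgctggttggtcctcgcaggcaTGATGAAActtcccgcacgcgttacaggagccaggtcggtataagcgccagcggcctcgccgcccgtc

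CHAC1 (chr15:40953221-40953470, plus strand): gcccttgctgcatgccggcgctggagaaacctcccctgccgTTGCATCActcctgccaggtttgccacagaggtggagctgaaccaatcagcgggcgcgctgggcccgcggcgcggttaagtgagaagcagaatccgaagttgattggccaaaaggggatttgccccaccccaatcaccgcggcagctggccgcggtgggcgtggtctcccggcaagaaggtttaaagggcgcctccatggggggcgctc

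ATF3 (chr1:212565157-212565406, plus strand): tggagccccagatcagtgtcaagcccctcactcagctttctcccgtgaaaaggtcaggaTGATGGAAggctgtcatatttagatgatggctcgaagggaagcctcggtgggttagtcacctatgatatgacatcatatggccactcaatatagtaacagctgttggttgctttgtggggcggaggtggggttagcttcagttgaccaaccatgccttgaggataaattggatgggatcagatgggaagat

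PPP1R15A (chr19:48872171-48872420, plus strand): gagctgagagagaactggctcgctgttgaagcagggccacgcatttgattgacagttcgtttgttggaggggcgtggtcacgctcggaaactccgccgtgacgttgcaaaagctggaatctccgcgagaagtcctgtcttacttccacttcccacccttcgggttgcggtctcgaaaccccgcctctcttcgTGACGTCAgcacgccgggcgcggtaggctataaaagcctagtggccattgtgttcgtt

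In ASNS the match TGATGAAA began 68 bases before one of its 2 annotated starts, in CHAC1 the match TTGCATCA on the reverse strand 209 bases before it, and in ATF3 the match TGATGGAA 191 bases before the first of its 2 annotated starts. The CRE of PPP1R15A, TGACGTCA, began 58 bases before the start. A match is a description of letters and was not tested as a binding site. DDIT3 and SESN2, the genes with the largest differences, had no match in the window searched.

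**Figure D2:**
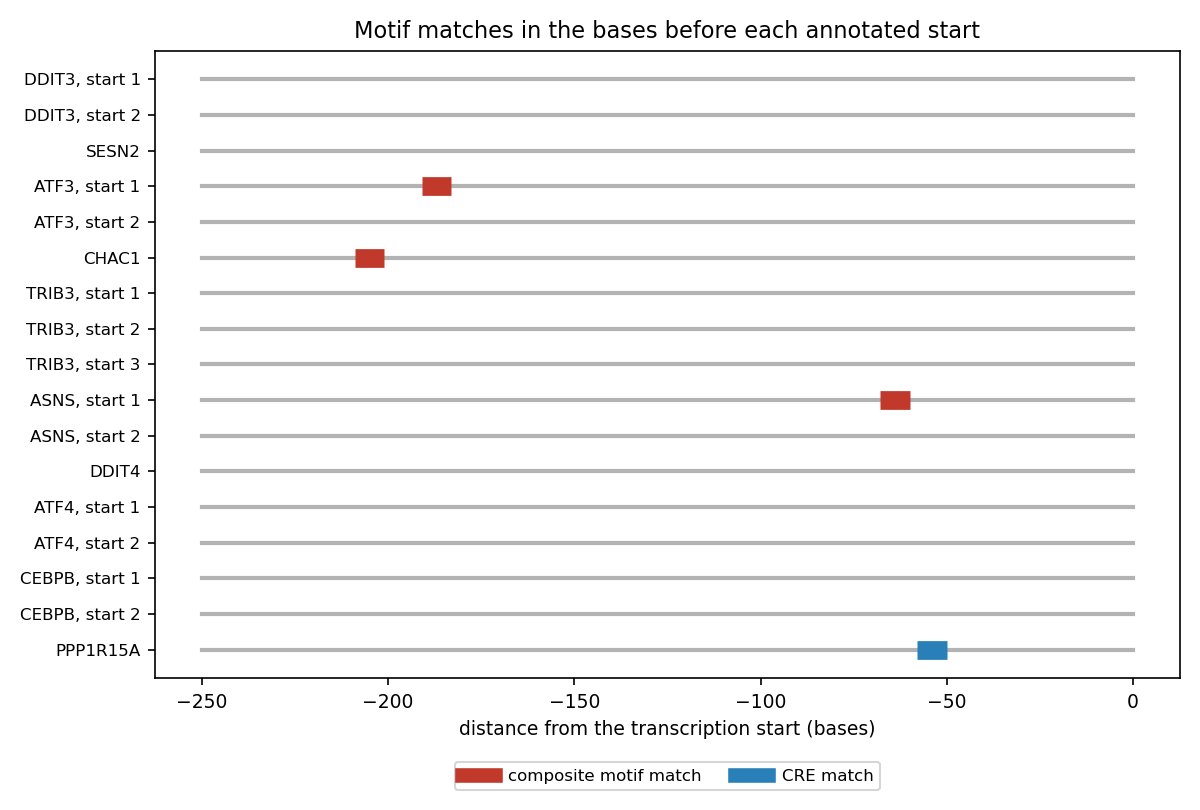
Each grey line is the 250 bases before 1 annotated start (x axis, distance from the start in bases), with genes ordered from the lowest log2 ratio at the top to the highest at the bottom. Red blocks are the composite motif, in ATF3, CHAC1 and ASNS, and the blue block is the CRE, in PPP1R15A.

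Among the transcription factors, CHOP stood furthest from wild type. DDIT3 had a raw bead signal of 449.7 on the radiation-adapted array and 1609.3 on the wild type array, a linear intensity with no background removed. Both signals were well above the lowest detected signal, 164.6 on the radiation-adapted array and 156.9 on the wild type array. After background correction and quantile normalization DDIT3 was 4.60-fold lower in radiation-adapted cells (log2 ratio -2.20), which placed it as number 3 from the bottom among the 9144 genes detected on both arrays. CHOP is known to promote cell death when stress persists.

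ATF3, a stress-induced bZIP repressor, had a raw signal of 270.8 in radiation-adapted cells and 576.3 in wild type cells at the 1 of its 3 probes that was detected. That probe gave a 3.08-fold lower level (log2 ratio -1.62), number 19 from the bottom. Its other 2 probes read 118 and 114.1 in radiation-adapted cells and 115.4 and 109 in wild type cells, below the detection limit on both arrays, so they gave no second reading. ATF3 thus rests on 1 probe, as do DDIT3, TRIB3, CHAC1, DDIT4, SESN2, PPP1R15A and CEBPB, and no repeat of their ratios was at hand.

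ATF4 was read by 3 detected probes that did not give the same direction. The brightest had a raw signal of 11634.8 in radiation-adapted cells and 13305.7 in wild type cells (log2 ratio -0.27, 1.21-fold lower). The second had 1463.1 in radiation-adapted cells and 1754.2 in wild type cells, a log2 ratio of -0.32. The dimmest probe had 267 in radiation-adapted cells and 176.1 in wild type cells, a log2 ratio of 1.15 (2.22-fold higher). Its wild type signal was close to the detection limit, its raw signals differed 1.52-fold, and without background correction its log2 ratio was 0.54. For scale, the log2 ratios of the 2 brightest detected probes of a gene differed with an SD of 0.401 over 2201 genes. That spread does not cover dimmer probes such as the dimmest of ATF4, so it cannot say whether the distance of that probe is unusual. Why the dimmest probe differed was not tested.

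CEBPB, a bZIP partner of ATF4 and CHOP, had a raw signal of 4626.6 in radiation-adapted cells and 4540.6 in wild type cells. Its log2 ratio of -0.03 was the smallest of the 10.

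TRIB3, a pseudokinase that binds ATF4 and restrains it, had 447.2 in radiation-adapted cells and 960.9 in wild type cells. It was 2.63-fold lower (log2 ratio -1.39). CHAC1, an enzyme that breaks down glutathione, had 184 in radiation-adapted cells and 287.5 in wild type cells and was 2.65-fold lower (log2 ratio -1.40). The CHAC1 signal in radiation-adapted cells was close to the detection limit of 164.6 there. The size of its ratio depended on how background was removed: the raw signals themselves differed 1.56-fold, and without background correction the log2 ratio was -0.70.

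SESN2 and DDIT4 both restrain the growth kinase complex mTORC1, and both had lower signals in radiation-adapted cells. SESN2, a leucine sensor, had 174.8 in radiation-adapted cells, just above the detection limit, and 358.3 in wild type cells. Its corrected level was 4.23-fold lower (log2 ratio -2.08), number 4 from the bottom, while its raw signals differed 2.05-fold and its log2 ratio without background correction was -1.09. DDIT4, also called REDD1, had 802.9 in radiation-adapted cells and 1441.3 in wild type cells, a 1.98-fold lower level (log2 ratio -0.98). It thus fell outside the 2-fold count by a margin far smaller than the spread between probes of a gene.

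ASNS, which makes asparagine and is a much-used marker of ATF4 activity, was the member at 2-fold or more with a second detected probe. Its brightest probe had 3013.7 in radiation-adapted cells and 6633.8 in wild type cells (2.37-fold lower, log2 ratio -1.25). The other had 765 in radiation-adapted cells and 1694.4 in wild type cells (2.49-fold lower, log2 ratio -1.32). The probes differed by 0.07 on the log2 scale, and both were bright enough that background correction made little difference.

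PPP1R15A, also called GADD34, is the subunit that directs a phosphatase to eIF2 and so ends the response. It had 737.2 in radiation-adapted cells and 650 in wild type cells, and its log2 ratio of 0.18 was the 1 value above 0 among the brightest probes of the 10 genes. The 10 members therefore did not share 1 size of difference: 7 had log2 ratios from -2.20 to -0.98, and 3 had ratios from -0.27 to 0.18.

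**Figure D3:**
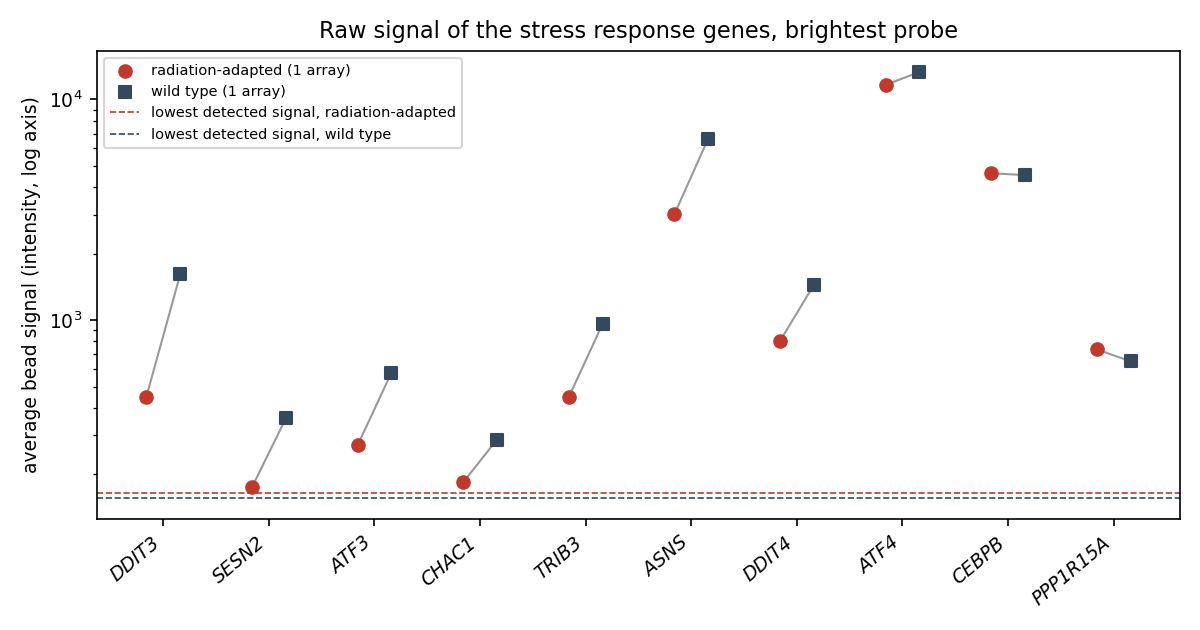
Raw bead signal (log axis) of the brightest probe of each gene, radiation-adapted as a red circle at the left of each pair and wild type as a dark square at the right, 1 array each. Dashed lines are the lowest detected signals, 164.6 on the radiation-adapted and 156.9 on the wild type array; SESN2 (174.8) and CHAC1 (184) lie close to them in radiation-adapted cells.

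Removing background stretches the ratios of dim probes, so the 10 genes were set side by side under 5 normalizations. DDIT3 ranged from -2.20 to -1.88 and ASNS from -1.28 to -1.22 on the log2 scale. SESN2 ranged from -2.08 to -1.09, ATF3 from -1.62 to -1.14, TRIB3 from -1.40 to -1.14 and CHAC1 from -1.40 to -0.70. Without background correction 5 of the 10 genes were at least 2-fold lower, CHAC1 being the 1 that left the count, while 0.275% of all detected genes were (28 genes, with 108 at least 2-fold higher). No member changed sign under any of these settings.

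**Figure D4:**
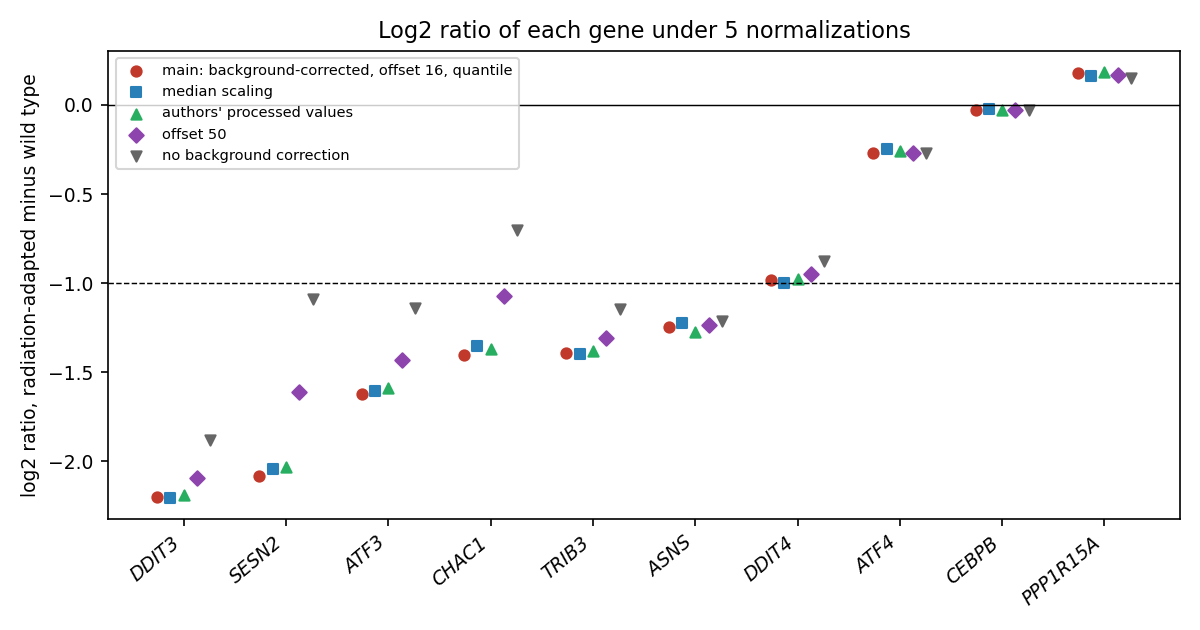
Log2 ratio, radiation-adapted minus wild type, of each gene under 5 normalizations (symbols), with a dashed line at 2-fold lower. The dim genes SESN2, ATF3 and CHAC1 move furthest toward 0 without background correction, and ATF4, CEBPB and PPP1R15A stay near 0 throughout.

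The genes that act before ATF4 were described next, from lists written with earlier results of these data known. Of 9 genes for eIF2 kinases and their activators 8 were detected, and none was at 2-fold in either direction. Their median log2 ratio was 0.03, and its sign changed with the settings. EIF2AK4, the kinase GCN2 that senses uncharged tRNA, had 559.6 in radiation-adapted cells and 410.9 in wild type cells (log2 ratio 0.52), and its activator GCN1 had 1846.6 in radiation-adapted cells and 1260.3 in wild type cells (0.56). EIF2AK1, the haem-sensing kinase HRI, was at 0.11 and EIF2AK2, the RNA-sensing kinase PKR, at 0.23. IMPACT, an inhibitor of GCN2, had 162.7 in radiation-adapted cells, where it was not detected, and 185.5 in wild type cells. After background correction this gave a level at least 1.53-fold lower. That size rests on the correction, since both signals were close to the detection limit. EIF2AK3, the kinase PERK of the endoplasmic reticulum, was not detected, with 138.1 in radiation-adapted cells and 143.8 in wild type cells.

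Of 10 genes for subunits of eIF2, of its exchange factor eIF2B and for 2 related initiation factors, 7 were below 0, with a median log2 ratio of -0.24. Over all detected genes 53.4% were below 0. The 1 gene at 2-fold was EIF2S2, the beta subunit of eIF2, with 233.6 in radiation-adapted cells and 365.3 in wild type cells (log2 ratio -1.16). Its raw signals differed by less than 2-fold, so that size rests on background correction. The initiation factor gene EIF2D was at -0.57 and EIF2B2 at -0.46. EIF2S1, the subunit that the kinases phosphorylate, was at 0.19. Among the phosphatase partners, the catalytic subunit genes PPP1CB (-0.64), PPP1CA (-0.58) and PPP1CC (-0.25) were below 0 (median -0.58, none at 2-fold), while PPP1R15B, the constitutive counterpart of PPP1R15A, was not detected on either array.

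Of 13 bZIP partners and relatives 7 were detected, with a median log2 ratio of -0.39. This median turned to 0.22 with a looser detection limit, so the list has no settled direction. CEBPG (-0.69), a main partner of ATF4, and ATF5 (-0.60), which is controlled at translation like ATF4, were lower by less than 2-fold. BATF3 was at 0.96, with dim signals of 265.9 in radiation-adapted cells and 184.7 in wild type cells. CREB1 was at 1.07 at its brightest probe, but 2 of its other 3 detected probes were below 0, down to -0.96. Of 13 paralogs of the members 7 were detected (median -0.20, none at 2-fold), in both directions. TRIB2 (0.76) and TRIB1 (0.72) were above 0 where TRIB3 was below, whereas CHAC2 (-0.13) and SESN1 (-0.20) were near 0. CHAC2 had 194 in radiation-adapted cells and 193.8 in wild type cells, and SESN1 had 173 and 176. Signals so close to the detection limit leave little room to show a difference.

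Genes of amino acid supply that ATF4 is known to switch on were lower nearly throughout. Of 18 detected, 17 were below 0, beside 53.4% of all detected genes and 10 of 12 reference genes, whose median was -0.12, and the median log2 ratio of the list was -0.48. At least 2-fold lower were 5 of them and none was at least 2-fold higher. Over all detected genes 2.07% were at least 2-fold lower and 4.02% at least 2-fold higher. CTH, which makes cysteine, had 352.9 in radiation-adapted cells and 995.9 in wild type cells (log2 ratio -1.94), and its other 2 detected probes were also lower. PCK2, a mitochondrial enzyme that makes phosphoenolpyruvate, had 486.7 in radiation-adapted cells and 1163 in wild type cells (-1.54). Its other 2 detected probes were at -1.67 and -0.65. The serine synthesis genes PSPH (-1.07) and PSAT1 (-1.01) and the mitochondrial folate enzyme gene MTHFD2 (-1.02) were just past 2-fold. Each had raw signals that differed by less than 2-fold, so its place past 2-fold rests on background correction and normalization. The other detected probe of PSPH, at -0.73, was short of 2-fold. The exception above 0 was the transporter gene SLC1A4 (0.80). The cystine transporter gene SLC7A11 was not detected on either array.

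For tRNA charging, 11 of 12 detected genes (91.7%) were below 0, beside 53.4% of all detected genes and 83.3% of the 12 reference genes. Their median log2 ratio was -0.50 and none was at 2-fold. These were smaller and more even differences than in the core: GARS1 was at -0.67, YARS1 at -0.58 and SARS1 at -0.56, and the 1 gene above 0, LARS1, was at 0.03.

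Another list held further genes reported to respond to ATF4 or CHOP. Of 19 detected, 11 (57.9%) were below 0, near the 53.4% of all detected genes, and the median of -0.16 was closer to that of all genes. VLDLR, a lipoprotein receptor gene, had 168.3 in radiation-adapted cells, close to the detection limit, and 255.3 in wild type cells (log2 ratio -1.47). TXNIP, an inhibitor of thioredoxin, was at -1.07, and EIF4EBP1, a repressor of cap-dependent translation, was at -0.997, just short of 2-fold. TNFRSF10B, the death receptor DR5 that CHOP is known to raise, was at 0.79, above 0 while DDIT3 was below. Its other detected probe was at only 0.22. The secreted stress markers GDF15, FGF21 and INHBE were not detected on either array. CEBPG and ATF5 are also in the list of bZIP partners.

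Genes of the other branches of the unfolded protein response lay on both sides of 0. Of 15 detected targets of ATF6 and XBP1, 10 were above 0 and none was at 2-fold, with a median log2 ratio of 0.09. Of these targets 33.3% were below 0, beside 53.4% of all detected genes. HSPA5, the chaperone BiP, had dim signals of 351.2 in radiation-adapted cells and 245.8 in wild type cells (log2 ratio 0.73). HYOU1 was at 0.52 (1.10 at its other detected probe) and DNAJB11 at 0.45. Of 7 genes in the list of sensors 5 were detected, 4 of them below 0 and 2 at least 2-fold lower by measured ratio, with a median of -0.03. Over all detected genes 2.07% were at least 2-fold lower. ATF6 was at -0.03, the protease gene MBTPS1 at 0.24, and ERN1 and EIF2AK3 were not detected. XBP1, whose mRNA the sensor IRE1 splices, had 629.2 in radiation-adapted cells and 1760.3 in wild type cells (log2 ratio -1.72), with its other detected probe at -1.50. ATF6B had 156.9 in radiation-adapted cells, where it was not detected, and 207.1 in wild type cells. This gave a level at least 1.97-fold lower after background correction, a size that rests on that correction since both signals were close to the detection limit, and its other detected probes lay on both sides of 0. Of 15 detected genes for mTORC1 and its regulators, 9 were above 0, 40% were below 0 and none was at 2-fold, with a median of 0.08. TSC1 (0.54), SEH1L (-0.45) and WDR24 (0.43) were furthest from 0 there, and TSC1 had another detected probe below 0.

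**Figure D5:**
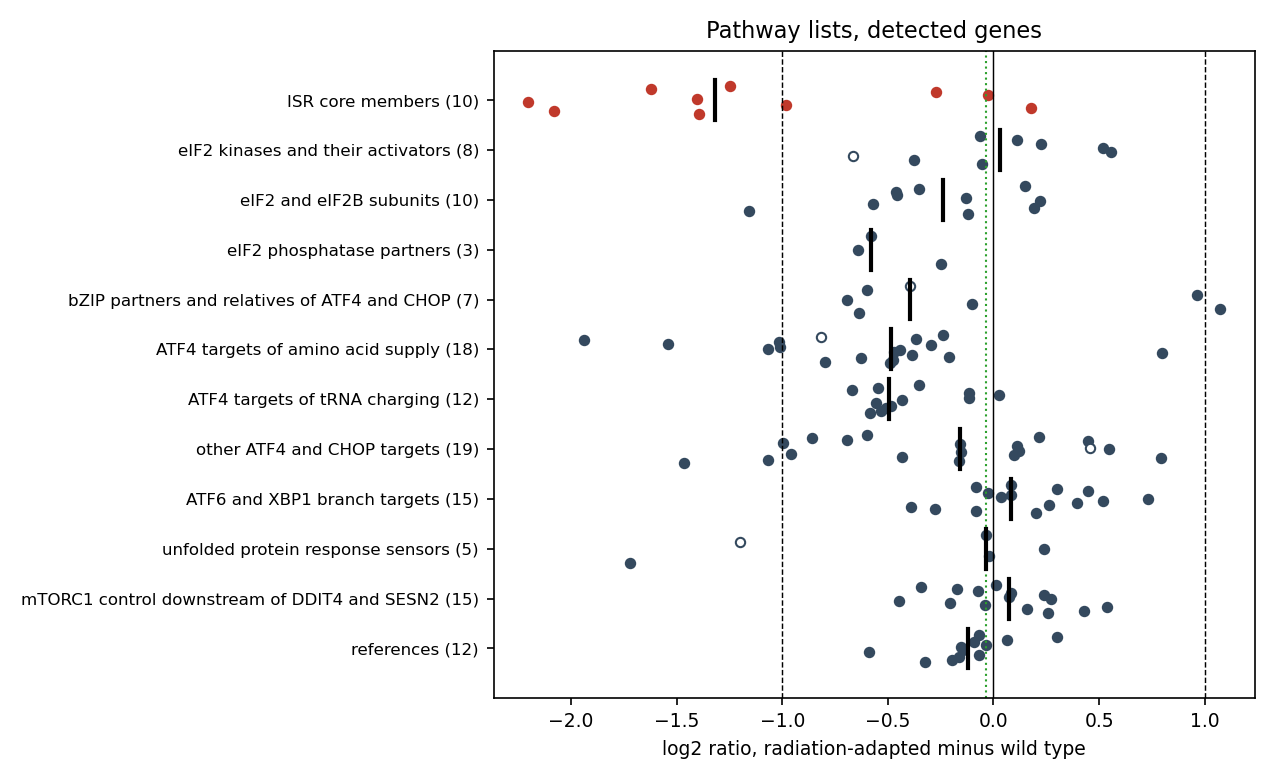
Log2 ratio, radiation-adapted minus wild type, of every detected gene of each list (number detected in parentheses); bars are list medians, open points are genes detected on 1 array, dashed lines mark 2-fold and the dotted green line is the median of all detected genes, -0.04. The core list has its median at -1.32, the amino acid supply and tRNA charging lists at -0.48 and -0.50, and the ATF6 and XBP1 targets at 0.09.

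As checks on the arrays, the median raw signal was 139.3 in radiation-adapted cells and 137 in wild type cells, and of 47323 probes 32.5% were detected in radiation-adapted cells and 33.6% in wild type cells. Of 12 reference genes 10 (83.3%) were below 0 and none was at 2-fold, with a median log2 ratio of -0.12, ACTB at -0.07, GAPDH at -0.09 and PPIA furthest at -0.59, followed by YWHAZ (-0.32) and B2M (0.30). Of 14 markers of Ewing sarcoma cells 12 were detected on both arrays and none was at 2-fold (median 0.36, PAX7 0.94, NKX2-2 -0.68, BCL11B 0.58). PAX7 had another detected probe below 0. Few epithelial, leukocyte and endothelial markers were detected: 2 of 10 epithelial (median -0.24, MUC1 -0.31, EPCAM -0.18), 3 of 10 leukocyte (median -0.27) and 1 of 8 endothelial (EMCN, -0.01). Of the fibroblast genes 6 of 10 were detected, all on both arrays. The fibroblast median was 0.23, with COL1A2 at 1.10, THY1 at 0.75 and DCN at -0.59, and COL1A2 had another detected probe below 0. Among the leukocyte genes CD68 was at 0.89, with another detected probe at -0.23. CORO1A had 141.1 in radiation-adapted cells, where it was not detected, and 180.7 in wild type cells. It was at least 1.43-fold lower after background correction, a size that rests on that correction. PTPRC, the defining leukocyte gene, was not detected on either array.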

How the data were processed

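Total RNA of 1 radiation-adapted and 1 wild type SK-ES1 culture was extracted with Trizol and labelled with an Illumina TotalPrep kit, per the labels' protocols, and groups were taken from the sample titles. The authors deposited an average bead signal per probe, a linear intensity with no normalization, with a detection p-value for each, both per the file headers. The scanner software is not given in the sources used here. A second deposited table of intensity values, whose making is not stated, holds values below 0 and equal quantiles on both arrays, and was used as an alternative only (values below 0 set to 0, then the same offset and log2).

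Background correction used neqc of limma 3.58.1 (R 4.3.3), with the normexp model fitted from the detection p-values, an offset of 16, quantile normalization and log2. The offset shrinks the ratios of dim genes. Later steps used Python 3.11.15, pandas 2.3.3, NumPy 2.4.6 and matplotlib 3.10.9. Of 47323 probes, 30113 had 1 gene in the platform annotation, 8 had several and 17202 were not named here, and symbols were updated by gene identifier through a RefSeq table of GRCh38.p14. Each gene was read at its brightest probe by mean log2 signal, and it was detected where that probe's p-value was under 0.01 on either array. A gene not detected on 1 array is given as at least N-fold, against the higher of that array's lowest detected signal and the gene's own. This holds no allowance for measurement error.

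The size rule was 2-fold, with no test because each group had 1 array, and the number of arrays limits the precision. The members, the 18 lists, the motifs and the named genes were chosen with earlier results of these data known. The naming rule took every member, the 3 detected genes of each other list furthest from 0, up to 6 at 2-fold, ACTB and GAPDH. Other list genes in the text, such as EIF2AK1, EIF2AK2, EIF2S1, ATF5, CHAC2, SESN1, SLC1A4, LARS1, TNFRSF10B, ATF6, PTPRC and those given as not detected, were picked with their values in view. With 2 arrays, no likeness of pattern between genes was computed. The steps were tested on simulated data. Alternatives changed the background correction, the offset, the scaling, the source of the values, the probe rule, the detection filter and the size rule.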

Additional observations from a re-analysis of the deposited data

How the results depend on the processing

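The count of members at least 2-fold lower was 6. It was 5 without background correction and 6 under each other alternative that kept the 2-fold size, and 7 members were at least 1.5-fold lower. The alternatives of the detection filter could not change any member, because all 10 were detected on both arrays. The change of probe rule could not move members with 1 detected probe. No member was higher by the size used under any of the 9 alternatives, and the median log2 ratio of the members ranged from -1.34 to -0.98. Counts over all detected genes moved more. At 2-fold or more, 211 were lower and 410 higher in radiation-adapted cells, against 28 and 108 without background correction, 70 and 212 with an offset of 50, 125 and 253 among genes detected on both arrays, and 977 and 1272 at 1.5-fold. The setting on both arrays leaves out genes detected on 1 array, and the share of lower calls was 1.37% there, beside 2.07%. The looser size accounts for the counts at 1.5-fold. Without background correction and with the larger offset, fewer genes were called in either direction. Among the genes called, higher calls thus made up a larger part. Of 224 other values of single genes and lists, 216 moved by less than the SD between probes of a gene and 8 by more. The 216 include the members under the detection filters, whose values were fixed in advance. Among the members, the values that moved by more were those of SESN2, ATF3 and CHAC1 without background correction and SESN2 with an offset of 50 (-1.61). The list medians whose sign changed were those of eIF2 kinases and their activators, bZIP partners, and leukocyte and endothelial markers. No paired analysis was possible because each group holds 1 array. Replicates could not be left out for the same reason. Signal over background limits SESN2, CHAC1 and VLDLR, which were just above the detection limit in radiation-adapted cells.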

Other observations

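The motif search was extended to every detected gene with a promoter window, after the values of the 10 members had been seen. Of 8241 such genes, 185 (2.24%) held the composite motif TGATGNAA in the 250 bases before a start. Their median log2 ratio, radiation-adapted minus wild type, was -0.11, beside -0.04 for genes without it, and 7 of the 185 (3.78%) were at least 2-fold lower, beside 154 genes (1.91%) without it. The 7 include the members ASNS, CHAC1 and ATF3, which were chosen for being lower. For the CRE the values were 308 genes (3.74%), a median of -0.02 beside -0.05 without it, and 5 genes (1.62%) at least 2-fold lower beside 156 (1.97%). The differences between genes with and without a motif were not tested.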
